A study of Mus musculus with 25 samples.

Results

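Microglia sorted from transplanted type 2 mouse glioblastomas were compared with microglia sorted from transplanted type 1 glioblastomas, 3 libraries against 3. The libraries were chosen by their labels alone: type 2 replicates 1, 2 and 3 against type 1 replicates 1, 2 and 4, 6 of the 21 libraries with expression values and of 25 labelled samples. Every sample came from tumour tissue, was sorted as microglia and was amplified from total RNA with a low-input SMART-Seq kit. The labels number the tumour types 1 and 2 after a pair of lineage-based glioblastoma models, and they give no strain, allele, driver gene, age, sorting gate or graft source. They do not say whether libraries of a group came from separate mice, so every p-value rests on library-to-library spread alone, and that spread may be technical. Spontaneous tumour microglia (3 type 1 and 3 type 2 libraries) and cells labelled MDM, the usual abbreviation of monocyte-derived macrophage, from transplanted tumours (4 type 1 and 2 type 2 libraries) serve below only to show where the comparison differs.

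Microglia are the resident macrophages of the brain parenchyma, and they depend on signalling through Csf1r. Around damage, amyloid and tumours they can take up a state called disease-associated, in which lipid-handling, lysosomal and surface genes such as Itgax, Clec7a, Cst7, Spp1 and Apoe are raised, in part through the receptor Trem2. Interferon-responsive and border-associated macrophage programmes are described beside it in brain tumours.

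The 6 libraries held between 31751042 and 50365607 reads assigned to genes, with 17214 to 18581 genes detected in each. Levels below are normalised read counts, which are reads divided by the library's size factor (0.69 to 1.34), and values of 3 libraries are always given in the order type 1 replicates 1, 2, 4 and type 2 replicates 1, 2, 3. The defining markers of microglia were present in both groups. Tmem119, a microglial surface protein, stood at 186798, 212630 and 152476 in type 1 and at 150263, 245104 and 108973 in type 2 (log2 difference -0.20 ± 0.50 SE, adjusted p 0.94). P2ry12, the purinergic receptor of surveying microglia, gave a difference of 0.16 ± 0.90, and Sall1, which maintains microglial identity as a transcription factor, 0.28 ± 0.80. SEs and p-values here and below use the spread within all 8 groups of the 21 libraries, MDM included, not that of the 6 libraries alone. Sall1, for example, ranged from 7690 to 12564 in the 6 libraries and from 5.81 to 2307 in MDM of transplanted tumours. All 29 measured homeostatic microglia markers had reads in all 6 libraries, and their summed level was 2157031 to 2208317 in type 1 and 1677793 to 2604910 in type 2. Of the 29, 18 had a positive and 11 a negative difference. In 2 every type 2 library was lower and in 2 higher, beside 9.57% and 8.21% of all tested genes. Fcrls, 1 of those lower, stood at 117561, 143784 and 126166 in type 1 and at 70620, 57970 and 57252 in type 2 (-1.06 ± 0.64, adjusted p 0.67 with limma-trend). Judged by Xist and Y-linked transcripts, type 1 held 1 female and 2 male libraries and type 2 held 2 female and 1 male.

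Transcripts of other cells were uneven among the 6 libraries, and the plot of marker lists by library shows how. The 19 measured T and NK cell genes summed to 4639 and 7295 in type 1 replicates 1 and 2, to 373 in type 1 replicate 4, and to 452 to 1217 in type 2. Of 12 neutrophil markers, S100a8, Elane, Mpo, Retnlg, Mmp8 and Ly6g had no read in any type 1 library, while S100a8 stood at 0, 418 and 101 in type 2. Oligodendrocyte progenitor markers summed to 1097 to 1126 in type 1 and to 26.2 to 64.1 in type 2, where Pdgfra, Gpr17, Nkx2-2 and Cacng4 had no reads. Border-associated macrophage markers summed to 4192 to 6382 in type 1, where Cd209g and Clec10a were at 0, and to 6470 to 18515 in type 2. The part of these transcripts in the differences below was not tested, except where a value without a library is given. In bulk libraries, fewer cells of a type and less RNA per cell cannot be told apart.

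**Figure D1:**
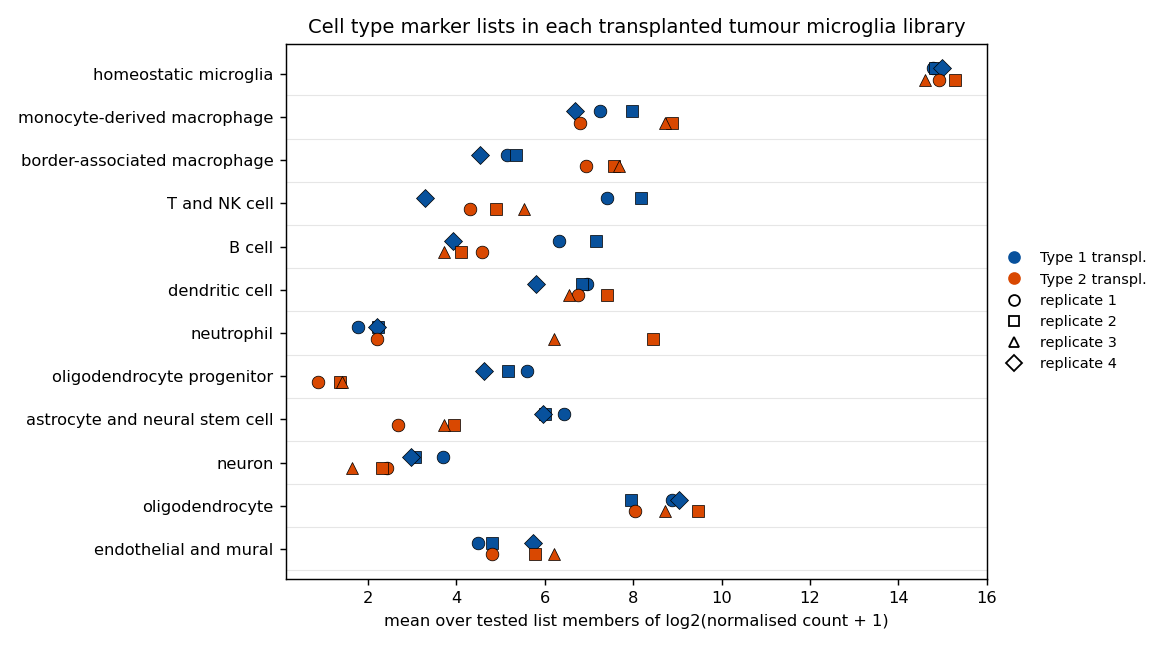
Mean of log2(normalised count + 1) over the tested members of each cell type marker list (x axis), 1 point per transplanted tumour microglia library, coloured by tumour type and shaped by replicate. The homeostatic list sits between 14.60 and 15.28 in all 6 libraries, the oligodendrocyte progenitor list lies at 4.63 or more in type 1 and at 0.87 to 1.42 in type 2, and the T and NK cell list is highest in type 1 replicates 1 and 2 (7.41 and 8.17).

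Few genes passed the test between the tumour types, and most of those that did were lower in type 2. Of 17216 genes tested with limma-trend, 65 (0.378%) passed an adjusted p of 0.05, and these are termed called. Of them 60 (0.349%) were lower in type 2 and 5 (0.0290%) were higher. The split was 284 lower and 131 higher with array weights, 58 and 23 with only these 6 libraries fitted, and 73 and 32 without type 1 replicate 4. The median log2 difference of all tested genes was 0.01, and 50.4% of genes had a positive and 48.2% a negative difference. With limma-trend 1491 of the tested genes had an unadjusted p under 0.05, and in 17.8% the groups did not overlap. The called falls covered 3 ranges of count: 19 had a type 1 mean of at least 1000, 25 a mean of 50 to 1000 and 16 a mean under 50. The genes of the first range are described first, and then those of neural cells, which have lower counts.

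The number of calls was sensitive to single libraries. It was 32 without type 1 replicate 1, 30 without type 1 replicate 2, 105 without type 1 replicate 4, and 23, 29 and 17 without type 2 replicates 1, 2 and 3. In all 6 of these fits 13 genes were called: Ank, Ctse, Dgat2, Dpysl3, Fabp7, Mgat5b, Nkd1, Pard3, Rasgrp1, Sox6, Stra6l, Tmem51 and Wdfy1. Another 7 were called in none of them: Cadm1, Nes, Olig1, Pdcd1, S1pr1, Sox9 and Tub. Under 13 further settings of the filter, scaling, weights, model and samples fitted, 9 of the 13 genes were also called throughout, the exceptions being Ctse, Mgat5b, Pard3 and Rasgrp1. Without the pair of type 1 libraries rich in T and NK cell transcripts, limma-trend called 0 genes (496 at an unadjusted p under 0.05), with 1 type 1 library left, whose spread is taken from the other groups. The sign of the 65 genes could not change in that fit, because the groups did not overlap in any of them.

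**Figure D2:**
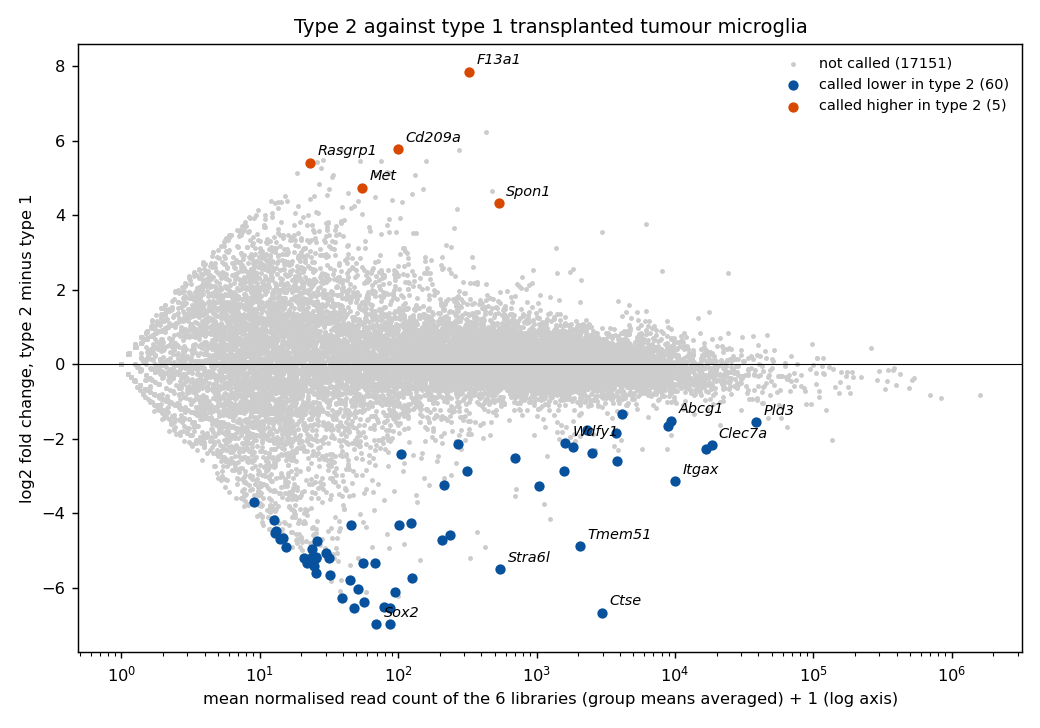
Log2 fold change of type 2 over type 1 (y axis) against the mean normalised read count of both groups plus 1 (x axis, log scale), 1 point per tested gene. The 60 genes called lower (blue) include a high-count set with Ctse, Itgax, Clec7a and Pld3 and a low-count set with Sox2, and the 5 called higher (orange) are F13a1, Cd209a, Rasgrp1, Met and Spon1.

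Genes of the disease-associated state had mostly negative differences, and 3 of them fell in type 2. Of 27 listed and tested members, 3 were called, all lower (Itgax, Clec7a and Cadm1, beside 0.349% of all genes called lower), 26 had a negative difference, and the list's median was -0.93 on the log2 scale, beside 0.01 over all genes. In 16 of 27 members every type 2 library lay below every type 1 library, as 9.57% of all tested genes did. Over the alternative settings tried, the list's median ran from -1.25 to -0.60.

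Itgax, which encodes the integrin CD11c, stood at 13093, 18347 and 22601 in type 1 and at 2752, 2209 and 1328 in type 2. The groups did not overlap, and Itgax fell 8.76-fold (log2 difference -3.13 ± 0.51, adjusted p 0.0087; 0.068 without type 2 replicate 3). Clec7a, the beta-glucan receptor Dectin-1, stood at 27275, 33535 and 28999 in type 1 and at 4764, 7509 and 8217 in type 2. Every type 2 library was lower than every type 1 library by a wide margin, a 4.48-fold fall (-2.17 ± 0.36, adjusted p 0.0091). The adjusted p of Clec7a was 0.056 without type 1 replicate 2 and 0.069 without type 2 replicate 1, and it rounded to 0.05 and missed the threshold with a replicate block. Cadm1, an adhesion molecule of the immunoglobulin superfamily, fell 3.14-fold, from 13593 ± 200 (SD, n = 3) to 4358 ± 639 (-1.65 ± 0.35, adjusted p 0.047). That call was lost on leaving out any 1 library, with adjusted p-values of 0.075 without type 1 replicate 4 to 0.21 without type 1 replicate 2 or type 2 replicate 3, and held in 7 of 13 other settings.

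The promoters of the called members of this list are shown because these genes moved together. Entries for Itgax and Clec7a were found in the RefSeq table of GRCm38.p6, which is the assembly the mm10 build is made from, and Cadm1 was not matched. In that annotation the protein-coding Itgax lies on chromosome 7 from 128129526 to 128150657, Clec7a on chromosome 6 from 129461591 to 129472785 and Cadm1 on chromosome 9 from 47530170 to 47862280. Each sequence runs 5′ to 3′ on the gene's strand from 250 bases before to 50 bases after the start of 1 promoter entry. That start lies slightly inside the gene limits given above. CCAAT, or ATTGG where the motif lies on the other strand, is in capitals.
Clec7a, chr6:129472730-129473029, minus strand: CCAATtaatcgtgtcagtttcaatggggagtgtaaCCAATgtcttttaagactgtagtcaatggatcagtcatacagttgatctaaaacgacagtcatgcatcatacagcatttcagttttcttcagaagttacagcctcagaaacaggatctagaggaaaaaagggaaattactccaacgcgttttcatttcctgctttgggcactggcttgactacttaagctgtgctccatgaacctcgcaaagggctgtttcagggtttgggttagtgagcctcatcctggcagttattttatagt
Itgax, chr7:128129300-128129599, plus strand: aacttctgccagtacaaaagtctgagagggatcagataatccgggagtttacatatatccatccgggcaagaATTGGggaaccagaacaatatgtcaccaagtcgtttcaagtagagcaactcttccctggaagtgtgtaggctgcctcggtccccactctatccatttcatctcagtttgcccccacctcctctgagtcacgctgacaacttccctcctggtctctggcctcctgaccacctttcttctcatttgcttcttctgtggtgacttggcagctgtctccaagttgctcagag
CCAAT, the Y box, occurred at 2 places in the Clec7a window and at 1 in the Itgax window, and 37.4% of the 32851 promoters in the table hold it on either strand. Neither window held a GAS motif (TTCNNNGAA, in 8.3% of all promoters), an interferon-stimulated response element (ISRE, 3.44%) or a kappa B motif (GGGGNNTCC, 5.65%), and no capitals overlap another of these motifs. Of the 65 called genes 48 had a promoter entry, and 20 of these held CCAAT, 5 the kappa B motif, 4 the GAS motif and 2 the ISRE. A gene was counted if any of its entries held the motif, whereas the shares above are of single entries, so the 2 are not directly comparable.

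Other members of the disease-associated list were lower without passing the test. Cst7, an inhibitor of cysteine proteases, stood at 35002, 38576 and 21968 in type 1 and at 14267, 7007 and 10127 in type 2 (-1.62 ± 0.39, adjusted p 0.085). The tetraspanin Cd9 gave -1.24 ± 0.34 (adjusted p 0.16) and lipoprotein lipase (Lpl) -1.08 ± 0.67. Spp1, which encodes osteopontin, overlapped between the groups at 4345, 7915 and 4930 against 4400, 619 and 4205. Apoe, the lipid carrier, varied most within type 2, with 1578457, 386487 and 192706 against 827321, 1399759 and 670367 (-0.91 ± 0.68, adjusted p 0.73). Trem2 differed by -0.44 ± 0.55. Gpnmb, a glycoprotein of lipid-laden macrophages, had the only positive difference of the 27 (1.37 ± 1.09, adjusted p 0.74).

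The high-count genes with the greatest falls included a protease, a receptor and an enzyme of triglyceride synthesis, none of them in the disease-associated list. Ctse, the aspartic protease cathepsin E (GRCm38.p6 chromosome 1, 131638314 to 131675507), stood at 5791, 7184 and 4707 in type 1 and at 102, 60.2 and 29.3 in type 2. The lowest type 1 library exceeded the highest type 2 library many times over, and Ctse fell 101-fold (-6.66 ± 0.93, adjusted p 0.0035), with a call in all 6 fits that left out 1 library, though not with voom, limma's precision-weighted fit of read counts, on the recovered reads (adjusted p 0.10). Stra6l, a receptor for the retinol-binding protein, stood at 819, 1121 and 1258 against 41.8, 9.14 and 27.7, a 45.3-fold fall (-5.50 ± 0.68, adjusted p 0.0015). Dgat2, which makes triglyceride in its last step, stood at 1925, 2289 and 1425 against 152, 366 and 123, a 9.68-fold fall (-3.27 ± 0.50, adjusted p 0.0059). None of these groups overlapped.

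Abcg1, which exports cholesterol to lipoprotein particles, fell 2.85-fold, from 12726, 17063 and 11904 to 6060, 4113 and 4484 (-1.51 ± 0.30, adjusted p 0.033). It was called without type 1 replicate 4, and its adjusted p lay between 0.063 and 0.21 without each other library, the highest without type 1 replicate 2. It held in 10 of 13 other settings. It was the 1 called member of 20 genes of cholesterol efflux and lipid storage, beside 0.349% of all genes called lower. Of the 20, 19 had a negative difference (median -0.76), beside 48.2% of all genes. Named members of that list that were not called include Lpcat3, which remodels phospholipids (-0.71 ± 0.25), the fatty acid-binding Fabp5 (-2.05 ± 0.76) and the apolipoprotein gene Apoc1 (-1.88 ± 0.73).

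Pld3, an exonuclease of the lysosome, fell 2.93-fold, with 47381, 80062 and 46296 in type 1 and 25355, 14003 and 19704 in type 2 (-1.55 ± 0.33, adjusted p 0.044). Without 1 library its adjusted p was 0.045 for type 1 replicate 4 and 0.069 to 0.27 for the others, and it was 0.26 with quantile normalization. Rab7b, a small GTPase of late endosomes, fell from 1914, 2989 and 3012 to 514, 86.8 and 979 (-2.87 ± 0.60, adjusted p 0.042), and was called without type 2 replicate 3 but not without any other library (0.077 to 0.21). Among 28 lysosome and phagocytosis genes fixed as a list, limma-trend called 0, voom on the recovered reads called 0, and 8 had an unadjusted p under 0.05. Of these 28 genes 26 had a negative difference, with a median of -0.56, and in 15 every type 2 library was below every type 1 library, beside 9.57% of all genes. Ctsd, which encodes cathepsin D, differed by -0.82 ± 0.55, Ctsa, a carboxypeptidase, by -0.89 ± 0.33, and Scarb2, the lysosomal carrier of glucocerebrosidase, by -0.71 ± 0.24.

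Wdfy1, an endosomal adaptor of toll-like receptor signalling (chromosome 1, 79702262 to 79776143), had the smallest p of all genes. It stood at 2812, 2425 and 2594 in type 1 and at 776, 551 and 509 in type 2, a 4.32-fold fall (-2.11 ± 0.24, adjusted p 0.0011). The type 1 libraries lay within a narrow range, and the call held without each of the 6 libraries, with an adjusted p of at most 0.0098.

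**Figure D3:**
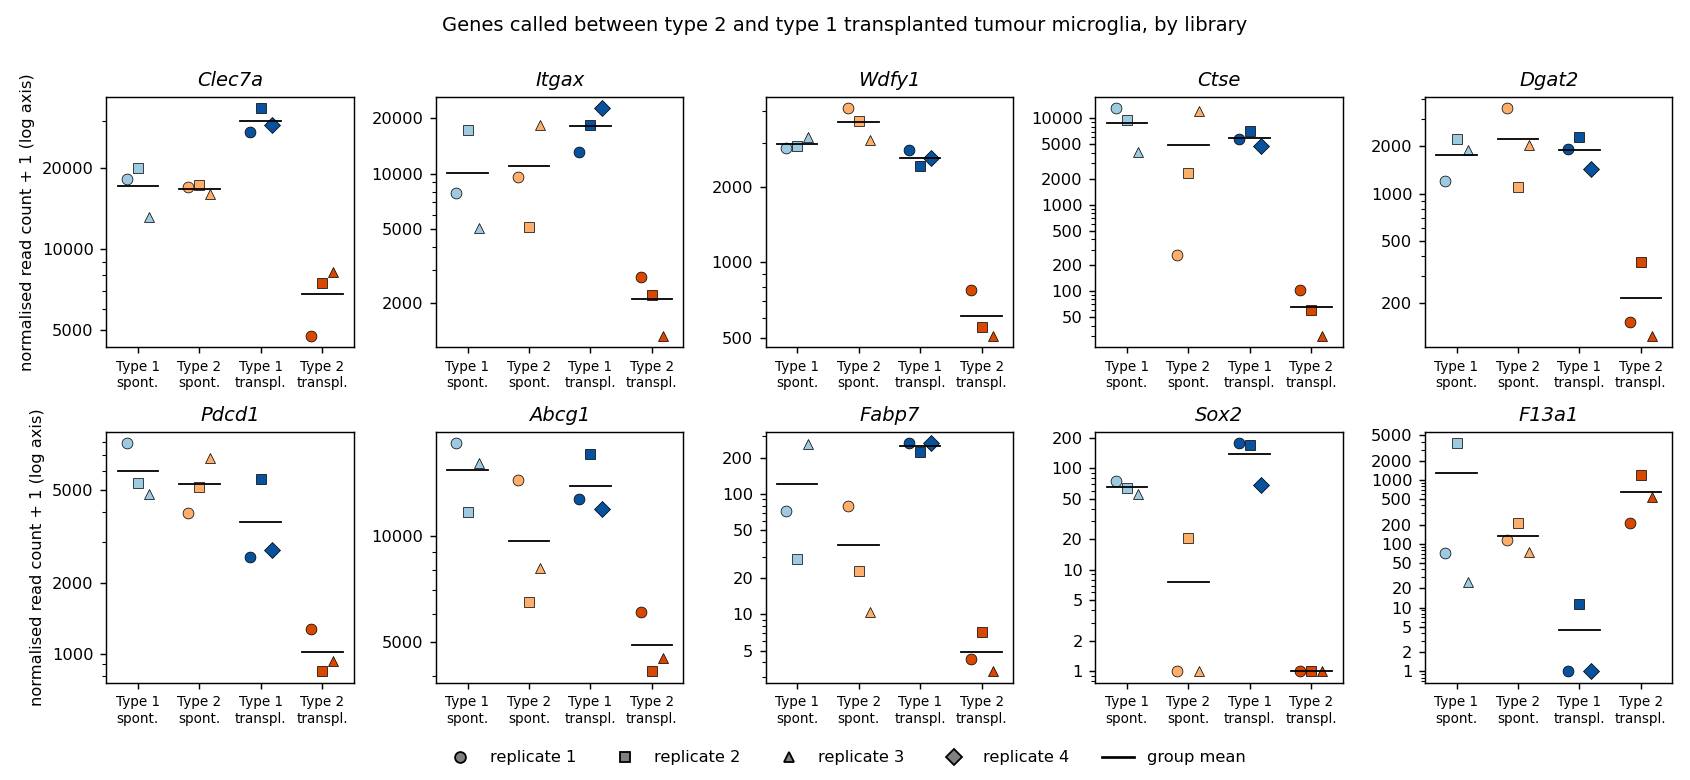
Normalised read count plus 1 (y axis, log scale) of 10 called genes in each microglia library of spontaneous (spont.) and transplanted (transpl.) tumours, with the replicate as the symbol and the arithmetic group mean as a line. In each of these 10 genes the 3 transplanted type 2 libraries do not overlap the 3 transplanted type 1 libraries, as for Clec7a (4764 to 8217 against 27275 to 33535), and F13a1 is the 1 gene of the 10 that is higher in type 2.

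Further high-count genes that fell are of several kinds. Tmem51, which encodes a membrane protein, fell from 3789, 5659 and 2479 to 58.2, 297 and 118, a 29.4-fold difference (-4.88 ± 0.70, adjusted p 0.0035). Ank, a membrane transporter known for pyrophosphate export, fell 6.06-fold, from 5695, 6516 and 7571 to 1277, 859 and 1146 (-2.60 ± 0.41, adjusted p 0.0082). Tspan13, a tetraspanin, fell 4.79-fold, from 27489 ± 5016 (SD, n = 3) to 5907 ± 2121 (-2.26 ± 0.37, adjusted p 0.0091, and 0.054, 0.056 and 0.073 without type 1 replicate 1 and type 2 replicates 1 and 3). For these 3 genes no type 2 library reached the lowest type 1 library.

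The remaining high-count falls are given briefly. Tspan13, Amz1, Osgin1, Marchf3, Maff and Ndst1 are named after their values were seen. So were Stra6l, Dgat2, Pld3, Rab7b, Tmem51 and Ank above, and Pdcd1, S1pr1 and Angptl2 below. Amz1, a metallopeptidase, fell 2.53-fold (-1.34 ± 0.22, adjusted p 0.0091) with little spread in either group: 5871, 5967 and 5982 against 2275, 2536 and 2253. Its adjusted p was 0.056 and 0.059 without type 2 replicates 1 and 3, and 0.11 with libraries rescaled to the same total. Osgin1, an oxidative stress response gene, fell 5.70-fold, and Ndst1, an enzyme of heparan sulfate synthesis, fell 4.70-fold. Lower-count falls included Maff, a small Maf transcription factor (4.38-fold), and Marchf3, a membrane ubiquitin ligase (7.27-fold). Each of these 4 lost its call without type 1 replicate 2, type 2 replicate 2, type 2 replicate 3 and at least 1 other library, with adjusted p-values of at most 0.11 for Osgin1, 0.12 for Maff, 0.18 for Marchf3 and 0.21 for Ndst1.

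Receptors and signalling genes of immune cells were also among the falls. Pdcd1, which encodes the checkpoint receptor PD-1, stood at 2590, 5569 and 2769 in type 1 and at 1273, 840 and 934 in type 2 (-1.77 ± 0.38, adjusted p 0.048). The groups did not overlap, but the call was lost on leaving out any 1 library, with adjusted p-values of 0.051 without type 1 replicate 4 to 0.29 without type 1 replicate 2. S1pr1, the receptor for sphingosine 1-phosphate, fell 3.60-fold, from 4567, 5540 and 7505 to 1768, 1234 and 1861 (-1.85 ± 0.36, adjusted p 0.029, and 0.055 to 0.17 without 1 library). Fgr, a Src-family kinase of myeloid cells, fell from 3122, 5718 and 3879 to 696, 1104 and 629 (-2.39 ± 0.45, adjusted p 0.024, and 0.17, 0.10 and 0.15 without type 1 replicate 2 and type 2 replicates 1 and 3). Pdcd1, S1pr1 and Fgr are also expressed by lymphocytes or other leukocytes.

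Cxcr4, the receptor of the chemokine Cxcl12, fell 5.29-fold, from 176 ± 72.2 (SD, n = 3) to 31.5 ± 8.98 (adjusted p 0.036). It was called without type 1 replicate 4, not without any other library (0.069 to 0.22), and in 4 of 13 other settings. It was the 1 called member of 32 chemokine and receptor genes, beside 0.349% of all genes called lower, and their median difference was 0.00. Klrb1c, the NK cell receptor known as NK1.1, stood at 246, 315 and 141 in type 1 and at 17.2, 5.33 and 12.7 in type 2 (-4.26 ± 0.73, adjusted p 0.011). Without type 1 replicates 1 and 2 and type 2 replicates 2 and 3, each left out alone, its adjusted p was 0.055, 0.077, 0.081 and 0.055, and with voom it was 0.51. It was the 1 called member of 19 T and NK cell genes, beside 0.349% of all genes called lower. Klrb1c was highest in type 1 replicates 1 and 2, but type 1 replicate 4 also exceeded every type 2 library. In Lck and Nkg7 replicate 4 did not. Lck, a T cell kinase, stood at 558, 1024 and 57.4 against 44.3, 109 and 144, and Nkg7, a cytotoxic granule gene, at 582, 830 and 13.4 against 39.3, 43.4 and 52.2. The list's median was -1.47 with all libraries and 1.74 without those 2 libraries.

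Several markers of neural progenitors fell in type 2. Of 12 oligodendrocyte progenitor markers, 3 were called and all 3 were lower (Olig1, Olig2 and Ptprz1), beside 0.349% of all genes called lower. All 12 had a negative difference, with a median of -4.08, and in 10 every type 2 library was below every type 1 library, beside 9.57% of all genes. Of 17 astrocyte and neural stem cell markers, 5 were called lower (Sox2, Sox9, Hes5, Fabp7 and Nes), 13 had a negative difference and the median was -2.69. The summed level of that list, most of it from the glutamate transporter Slc1a3 (means of 5604 in type 1 and 8105 in type 2), was 7213 to 7963 in type 1 and 8848, 12333 and 6025 in type 2. Of 5 tested markers of mature oligodendrocytes limma-trend and voom called 0, 0 had an unadjusted p under 0.05, and the median was 0.09, with sums of 6355 to 9362 in type 1 and 7922 to 9487 in type 2. Of 8 neuronal markers limma-trend and voom called 0, 2 had an unadjusted p under 0.05, and the median was -1.21. These genes are known from neural cells and from glioma cells rather than from microglia, and how much of their RNA came from other cells in the sort was not tested.

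Fabp7, a fatty acid-binding protein of radial glia, stood at 261, 222 and 261 in type 1 and at 3.28, 6.09 and 2.37 in type 2, a 53.0-fold fall (-5.73 ± 0.78, adjusted p 0.0035). The call held without each library. Sox2, which keeps neural stem cells undifferentiated, stood at 175, 168 and 67.1 in type 1 and had no read in type 2. Against 3 reads per library, taken as the limit of a count of 0, Sox2 was at least 57.6-fold lower in type 2 (adjusted p 0.0087, and 0.051 without type 2 replicate 3). Without strand information, reads of Sox2 cannot be told apart from those of Sox2ot, the longer transcript around it.

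Olig1, a transcription factor of the oligodendrocyte lineage, fell 26.4-fold, from 283, 543 and 361 to 6.56, 12.9 and 27.7 (-4.72 ± 0.96, adjusted p 0.038, and 0.063 to 0.21 without 1 library). Its neighbour Olig2 stood at 127, 120 and 70.1 against 0.82, 8.38 and 0 (adjusted p 0.029) and was called without type 1 replicate 4 or type 2 replicate 2, with 0.12 to 0.16 without each other library. Nes, which encodes the intermediate filament nestin, fell 9.42-fold, from 196, 420 and 533 to 51.6, 15.2 and 61.0 (-3.24 ± 0.69, adjusted p 0.047, and 0.067 to 0.26 without 1 library). Hes5, a repressor in the Notch pathway, stood at 87.0, 308 and 124 against 0, 0.762 and 0 (adjusted p 0.0091, and 0.062, 0.056 and 0.06 without type 1 replicate 2 and type 2 replicates 1 and 3), where 0.762 is a single read. Cspg4, which encodes the progenitor proteoglycan NG2, was not called (-4.83 ± 1.09, adjusted p 0.065), and neither was Gfap, the astrocyte filament (-2.09 ± 0.70, adjusted p 0.32).

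Other called neural genes, named after their values were seen, behaved alike. Sox6, a transcription factor of progenitors, stood at 287, 181 and 46.2 in type 1 and at 0, 0.762 and 0.792 in type 2 (adjusted p 0.0035). Nkd1, which dampens Wnt signalling, stood at 95.7, 114 and 71.6 against no read in type 2, at least 39.5-fold lower (adjusted p 0.0082). Dpysl3, a cytoskeletal protein of growing neurites, stood at 67.4, 80.2 and 81.3 against no read, at least 32.2-fold lower (adjusted p 0.0035). Sox6, Nkd1 and Dpysl3 kept their calls without each library. Among genes of synapses and channels, Syn2, Gria2, Nlgn1, Scn8a and Dpp6 were called lower too, with adjusted p-values of 0.0091 for Syn2 to 0.047 for Nlgn1, and each lost its call without 3 or more single libraries, type 2 replicate 3 among them. In all, 19 called genes had no read in any type 2 library. The fitted fold of such a gene depends on the value of 1 added before taking logs, so only the bound is given.

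The 5 genes called higher in type 2 were F13a1, Cd209a, Met, Spon1 and Rasgrp1. F13a1, the A chain of coagulation factor XIII and a marker of monocytes and border-associated macrophages, stood at 0, 10.2 and 0 in type 1 and at 209, 1188 and 546 in type 2 (7.85 ± 1.40, adjusted p 0.014). The groups did not overlap, and the adjusted p was 0.088 without type 1 replicate 1, 0.11 without type 2 replicate 2 and 0.077 without type 2 replicate 3, with 0.33 by voom. Cd209a, a lectin of monocyte-derived dendritic cells, stood at 0, 10.2 and 0 against 24.6, 368 and 194 (5.77 ± 1.20, adjusted p 0.042), and was called without type 1 replicate 2 or type 2 replicate 1, with 0.086 to 0.22 without each other library and 0.34 by voom. Its family has near-identical copies, so its reads are less certain. Both genes were highest in type 2 replicates 2 and 3, which were also the libraries with neutrophil transcripts: Ngp, a neutrophil granule gene, stood at 0, 2270 and 331 in type 2 and at 0, 0 and 0.745 in type 1.

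Spon1, a secreted matrix protein, rose 20.1-fold, from 92.4, 36.5 and 32.8 to 892, 1355 and 793 (4.33 ± 0.74, adjusted p 0.011). Without type 1 replicate 2 and type 2 replicates 1, 2 and 3, each left out alone, its adjusted p was 0.066, 0.055, 0.068 and 0.051, and with voom it was 0.094. Its type 2 values were alike in all 3 libraries, unlike those of F13a1 and Cd209a. Met, the receptor of hepatocyte growth factor, stood at 3.26, 0 and 6.71 against 29.5, 129 and 156 (4.74 ± 1.01, adjusted p 0.048), and was called without type 1 replicate 4 alone among single libraries (0.061 to 0.27 for the others) and in 4 of 13 other settings. Rasgrp1, an activator of Ras known from lymphocytes, is named outside the rule on levels after its values were seen. It had no read in type 1 and stood at 24.6, 47.2 and 61.0 in type 2, at least 13.4-fold higher (adjusted p 0.0035), and was called without each library, but not in fits of only the 6 libraries (0.059) or only the microglia libraries (0.074). In MDM of transplanted tumours Rasgrp1 stood at 1488 to 2926 and Cd209a at 2154 to 13604, above each of the 6 microglia libraries. F13a1 stood at 106 to 1137 in type 1 MDM and at 3600 and 8997 in type 2 MDM. Met (68.3 to 477) and Spon1 (192 to 1400) overlapped their type 2 microglia values. What part MDM had in the 5 rises was not tested. The next rises did not pass: Haus6, a spindle protein, gave 1.93 ± 0.43 (adjusted p 0.064), and Clec10a, a lectin of macrophages and dendritic cells, had no read in type 1 and 18, 106 and 42.7 in type 2 (adjusted p 0.065).

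Beside F13a1, border-associated macrophage markers leaned higher in type 2 without further calls. Of 13 tested, 12 had a positive difference, the median was 2.03, and in 5 every type 2 library exceeded every type 1 library, as 8.21% of all genes did. Mrc1, the mannose receptor, stood at 222, 149 and 51.4 against 747, 600 and 351 (2.17 ± 0.69, adjusted p 0.27), and Siglec1, a sialic acid-binding receptor, at 92.4, 101 and 207 against 819, 289 and 710 (2.14 ± 0.69, adjusted p 0.29). Among 25 genes of alternative activation and immunosuppression limma-trend and voom called 0, 8 had an unadjusted p under 0.05, and the median was 1.04. Arg1, which encodes arginase 1, was at 0, 0 and 1.49 in type 1 and at 24.6, 258 and 30.1 in type 2 (5.45 ± 1.37, adjusted p 0.10). Of 33 monocyte-derived macrophage markers, 1 was called (Fgr, lower, as 0.349% of all genes were), and their median was 0.75. Ccr2, the receptor of classical monocytes, stood at 245, 139 and 98.4 against 125, 1373 and 779 (1.77 ± 1.06, adjusted p 0.67).

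The type I interferon response genes had positive differences throughout, and none was called. All 33 tested members had a positive difference, with a median of 0.85. In 23 of the 33 every type 2 library exceeded every type 1 library, as in 8.21% of all genes. limma-trend and voom called 0 of them, and 8 had an unadjusted p under 0.05. The list's mean of log2 levels was 10.54, 10.78 and 10.30 in type 1 and 11.49, 11.44 and 11.89 in type 2, so the groups did not overlap. Over the settings tried the list's median ran from 0.57, with sex in the model, to 1.28, without type 1 replicates 1 and 2.

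Oas2, a sensor of double-stranded RNA, had the smallest p of the list, at 158, 376 and 385 in type 1 and 2370, 2287 and 2730 in type 2 (3.11 ± 0.72, adjusted p 0.074). Stat2, a transducer of the interferon signal, gave 1.39 ± 0.56, Irf7, its target and amplifier, 1.15 ± 0.67, Ifi44 1.64 ± 0.58 and Slfn5 1.80 ± 0.61, all with adjusted p-values of 0.33 or more. Isg15, the ubiquitin-like product of the response, gave 0.21 ± 0.94. Of 29 interferon-gamma response genes 23 had a positive difference (median 0.64). In that list Gbp6, a guanylate-binding protein from a family of close copies, gave 1.35 ± 0.51 (adjusted p 0.42). Cxcl9, a chemokine for T cells, went the other way at 6376, 6754 and 6060 against 1230, 1696 and 1021 (-2.31 ± 0.73, adjusted p 0.26).

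The other macrophage lists held few calls. Of 32 nuclear genes of oxidative phosphorylation all had a negative difference with a median of -0.54, and limma-trend and voom called 0, with 0 at an unadjusted p under 0.05. Their mean log2 level was 11.68, 11.64 and 11.22 in type 1 and 11.08, 10.46 and 11.44 in type 2, where type 2 replicate 3 lay among the type 1 libraries. Of 27 glycolysis and hypoxia genes 18 had a negative difference (median -0.50) and 11 an unadjusted p under 0.05. The glycolytic Pfkl gave -0.78 ± 0.25 and Tpi1 -1.21 ± 0.40. For both, neither limma-trend (adjusted p 0.27 and 0.30) nor voom made a call.

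Genes of MHC class II, whose products show peptides to CD4+ T cells, varied widely within type 2, and none of the 11 tested was called by limma-trend or voom (2 at an unadjusted p under 0.05). H2-Ab1 stood at 105104, 380472 and 40015 in type 2 and at 210347, 214039 and 125541 in type 1 (-0.61 ± 0.67, adjusted p 0.82), highest and lowest in type 2. Their regulator Ciita followed the same order in type 2, at 544, 2523 and 275. The class II list's median was -0.64 and turned to 0.08 without type 2 replicate 3. The homeostatic list's median of 0.14 turned to -0.17 without type 2 replicate 2. In the complement list C4b, a component of the classical pathway, stood at 5136, 7740 and 9491 against 50707, 45638 and 26265 (2.44 ± 0.58, adjusted p 0.08), and C3 gave 1.59 ± 0.60. Cxcl13, a B cell chemokine, stood at 533, 1145 and 502 against 13977, 3076 and 17608 (3.76 ± 1.15, adjusted p 0.23). C4b and Cxcl13 did not overlap between the groups and did not pass the test.

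**Figure D4:**
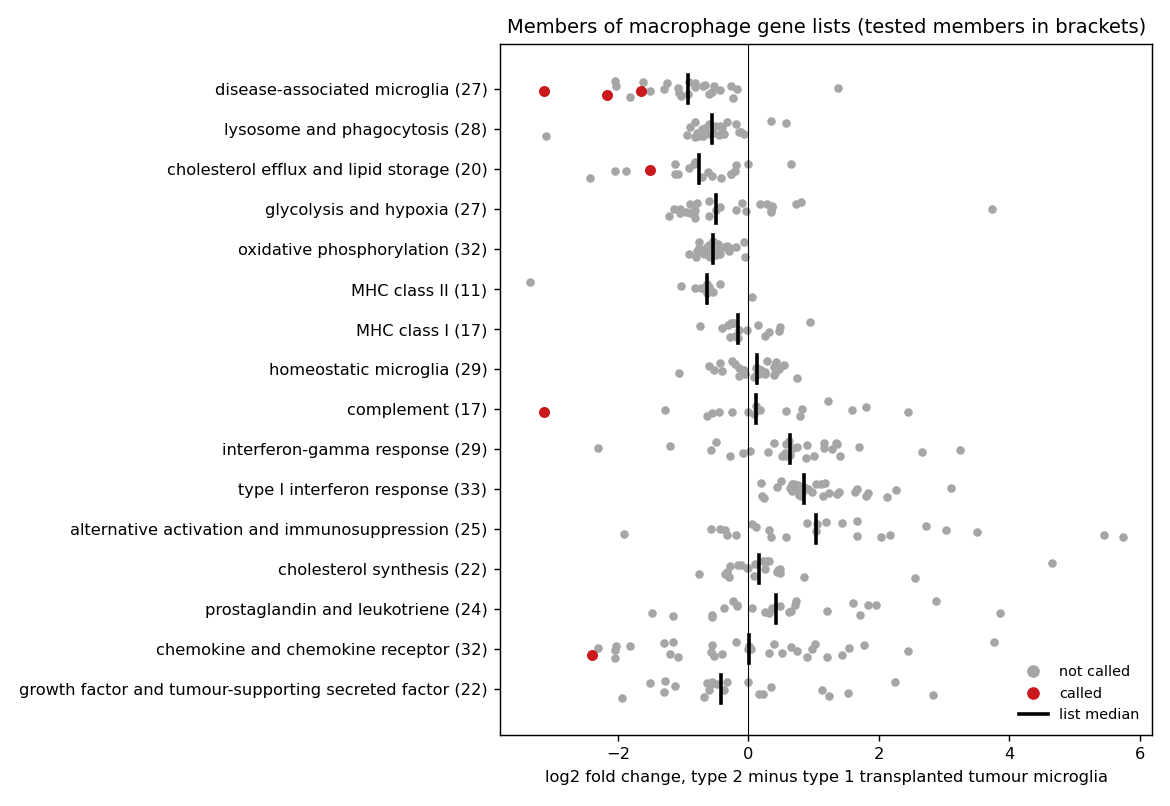
Log2 fold change of type 2 over type 1 (x axis) for each tested member of 16 gene lists (rows, number tested in brackets), with called members in red and the list median as a black bar. The disease-associated list lies to the left of 0 with 3 called members (median -0.93), the type I interferon list wholly to the right with none (median 0.85).

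Whether the tumour types differ in the same way in spontaneous tumours was tested as a difference of the differences. limma-trend called 2 of 17216 genes (0.0116%), 1 in each direction (0.00581%), and 1088 had an unadjusted p under 0.05. Wdfy1 was 1 of them: in spontaneous tumour microglia it stood at 2861, 2903 and 3151 in type 1 and at 4121, 3671 and 3077 in type 2, so its type difference was 0.28 ± 0.24 there and -2.11 ± 0.24 in transplanted tumours (difference -2.39 ± 0.34, adjusted p 0.014). Rasgrp1 was the other, at 12.3, 12.2 and 25.8 in spontaneous type 1 and 19.5, 1.15 and 0 in spontaneous type 2 (difference 7.65 ± 1.10, adjusted p 0.014). Neither gene was called in the difference without type 1 transplanted replicate 1, where 0 genes were called, and the count was also 0 without each of type 2 transplanted replicates 2 and 3 and spontaneous type 1 replicate 2. It was 0 as well when only the 4 groups compared were fitted (866 at an unadjusted p under 0.05).

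The other genes called between transplanted tumours were not shown to differ from their spontaneous counterparts. Of the 65, 45 had the same sign in spontaneous tumours, 24 had an unadjusted p under 0.05 there, and 0 of the 65 were among the 10 (0.0581%) called there, of which 6 (0.0349%) were higher and 4 (0.0232%) lower in type 2. The 24 include genes whose sign was opposite in spontaneous tumours: Rasgrp1 (-2.24 ± 0.78), Marchf3 (1.30 ± 0.53) and S1pr1 (0.83 ± 0.36). Angptl2, a secreted angiopoietin-like protein, differed by -4.58 ± 0.89 in transplanted and -4.50 ± 0.89 in spontaneous tumours (adjusted p 0.029 and 0.077, the former 0.21 at most without 1 library). Sox2 was at 73.7, 63.6 and 54.8 in spontaneous type 1 and at 0, 19.6 and 0 in spontaneous type 2, and the oligodendrocyte progenitor list had medians of -4.08 and -1.73 in the transplanted and spontaneous models.

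Most high-count genes had smaller type differences in spontaneous tumours, within 1 on the log2 scale for 17 of the 19 with a type 1 mean of at least 1000. Among the 17, Abcg1 gave -0.73 ± 0.30 and S1pr1, in the opposite direction to its transplanted fall, 0.83 ± 0.36. All 19 were chosen by their transplanted difference. None of the 19 but Wdfy1 was called in the contrast of the 2 models. Clec7a gave -0.01 ± 0.36 there (difference -2.16 ± 0.51, adjusted p 0.26), and Itgax gave 0.13 ± 0.51 (difference -3.26 ± 0.72, adjusted p 0.20). Ctse ranged from 263 to 12236 among the 3 spontaneous type 2 libraries and gave -2.03 ± 0.93. The disease-associated list had a median of -0.10 in spontaneous tumours, and the type I interferon list -0.55 against 0.85 in transplanted ones. Of the 5 rises, 4 had a negative type difference in spontaneous tumours, and Spon1 gave 0.16 ± 0.74. Spontaneous type 1 replicate 2 stood apart in some of these values. F13a1 was 70.3, 3738 and 24.2 in spontaneous type 1, against 114, 207 and 73.5 in type 2. Cd209a was 77, 852 and 19.3 against 40.2, 32.3 and 6.84. The interferon list's mean log2 level was 11.17, 12.97 and 11.6 against 11.28, 11.69 and 11.33. Rasgrp1 was not highest in that library, whose part in these differences was not tested.

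**Figure D5:**
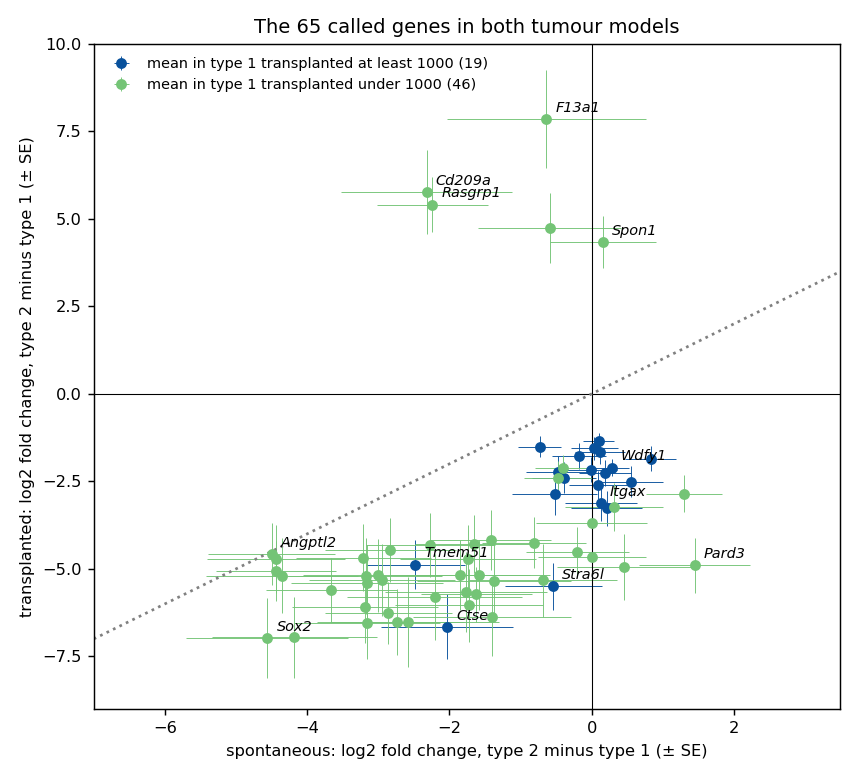
Log2 fold change of type 2 over type 1 with its SE for the 65 called genes, in spontaneous (x axis) and transplanted (y axis) tumour microglia, and a dotted line of equal values. Genes with a type 1 transplanted mean of at least 1000 (blue) are within 1 of 0 on the x axis in 17 of 19 cases, the others being Ctse and Tmem51, Sox2 and Angptl2 lie far to the left, and all 65 were chosen by their values on the y axis.

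The same contrast was set against MDM of transplanted tumours, which come from the same class of tumours. limma-trend called 1018 genes (5.91%) between type 2 and type 1 MDM, 509 (2.96%) in each direction, and 12 of the 65 microglia genes were among them. It called 129 genes (0.749%) whose type difference was unlike in the 2 cell types, 61 (0.354%) higher and 68 (0.395%) lower in microglia, and 9 of the 65 were among them. With libraries rescaled to the same total the split was 108 higher and 31 lower. Clec7a had the smallest adjusted p of the genes described here: in MDM it stood at 3723, 1758, 1507 and 3300 in type 1 and at 6116 and 16403 in type 2 (2.07 ± 0.38), so it was lower in type 2 microglia and higher in type 2 MDM (difference -4.23 ± 0.53, adjusted p 0.0024). Cadm1 and Rab7b moved in the same opposed way, with differences of -3.05 ± 0.51 and -5.13 ± 0.87 (both adjusted p 0.012). Stra6l, Tmem51 and Dgat2 had MDM type differences of -0.36 ± 0.72, 0.15 ± 0.74 and 0.34 ± 0.53, far from their falls in microglia (adjusted p of the difference 0.023, 0.03 and 0.03). Wdfy1 fell in both, by 2.11 in microglia and by 1.25 in MDM on the log2 scale.

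The MDM libraries differed in makeup. T and NK cell genes summed to 291489 to 349554 in the 4 type 1 MDM libraries and to 345490 and 41807 in the 2 of type 2, and B cell genes reached 1606434 in type 2 MDM replicate 1. Homeostatic microglia genes summed to 129176 to 174933 in type 1 MDM and to 254794 and 588292 in type 2 MDM, and the disease-associated list, with a median of 1.57 in MDM, moved with them. What part this had in the 129 calls was not tested. The count was 990 without type 2 MDM replicate 1 and 12 without type 2 MDM replicate 3, it lay at 28, 38, 38, 31 and 43 without type 1 microglia replicates 1 and 2 and type 2 microglia replicates 1, 2 and 3, and at 47 and 45 without type 1 MDM replicates 2 and 3.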

How the data were processed

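The submitters' processing notes name STAR 2.7.8a, DESeq2 (version not given in the sources used here) and the mm10 build. The deposited log2 values were made by the authors and have a floor of 4.22, the form of a DESeq2 variance-stabilizing transformation. They were inverted to normalised counts, and all values multiplied by the recovered size factors lay within 1e-06 of whole reads (largest distance 1.1e-07). Genes with a normalised count of at least 10 in at least 3 of 21 libraries (17216 of 30749) were tested. limma-trend (limma 3.58.1, R 4.3.3) was fitted to log2(normalised count + 1) with 8 group means, p-values were adjusted by Benjamini-Hochberg over all tested genes, and genes were called under 0.05. Fold changes are on that scale, and those of low genes are understated. The planned model assumed deposited normalised counts. The code was tested on simulated data. Named genes were 23 fixed genes, up to 12 largest changes per direction with a mean of at least 50, up to 4 members per described list by p, and the 5 largest differences between cell types. Other genes were named outside this rule. Members and lists (33) were chosen with earlier results of these data known. The 4 normal brain samples were not analysed here. Alternatives covered the pseudocount, filters, scaling, weights, samples fitted, sex, blocks, deposited values, voom and left-out libraries.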

Additional observations from a re-analysis of the deposited data

Results flagged for a closer look

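Tests of a difference between the tumour type effects of 2 models or 2 cell types picked out the following genes, and their values are differences of log2 fold changes. Between transplanted and spontaneous microglia these were Wdfy1 (-2.39) and Rasgrp1 (7.65). Between microglia and MDM of transplanted tumours (microglia minus MDM), negative differences were found for Clec7a (-4.23), Cadm1 (-3.05), Rab7b (-5.13), Stra6l (-5.14), Tmem51 (-5.02), Dgat2 (-3.61), Adgrb1 (-6.93), Amz1 (-1.67), Cxcl14 (-4.09), Cxcl16 (-2.94), Pdgfa (-3.23), H2-DMb1 (-2.39) and Scarb2 (-1.54).

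The positive differences listed next are of genes with at most 61.0 normalised counts in any of the 6 microglia libraries. That is the level of Rasgrp1 in type 2 replicate 3. Rasgrp1 gave 6.10, Susd2 9.86, Mcoln3 9.27, Cxcr5 8.18, Cd163l1 8.08 and Gata1 7.80. Within MDM the type 2 minus type 1 difference was -6.26 for Susd2, -5.94 for Mcoln3 and -5.67 for Cxcr5. It was -8.08 for Cd163l1, -6.30 for Gata1 and -0.69 for Rasgrp1. Cd163l1, a scavenger receptor of gamma delta T cells, had no read in any of the 6 microglia libraries, and stood at 679, 193, 229 and 174 in type 1 MDM and at 0 in both type 2 MDM libraries. Its 679 in type 1 MDM replicate 1 lies far from the other 3, by a gap rule that chance meets in about 1 of 20 groups tested, and the gene was itself picked for a large difference.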

How the results depend on the processing

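The count of 65 calls moved to 41 with libraries rescaled to the same total, where the median of all genes shifts to 0.21, to 415 with array weights, to 37 with the 12 microglia libraries alone and to 0 without type 1 replicates 1 and 2, and it ran from 17 to 105 without 1 library. It was 45 to 81 under the other settings. Similar counts did not mean the same genes. With no tumour type library left out, calls shared with the 65 in the same direction ran from 29 with the 12 microglia libraries alone to 65 with array weights. They were 36 of 81 with only the 6 libraries fitted, 39 of 62 with no filter beyond 1 read, and 47 of 63 with a pseudocount of 8. The 2 calls between models became 1 with a pseudocount of 8 or voom, 182 with array weights, 0 with only the groups compared, with the block or without that pair, and 0 to 12 without 1 library. The 129 calls between cell types became 230 with a pseudocount of 8, 256 with array weights, 394 with only the groups compared, 237 on the deposited values, 63 with voom, 0 without that pair and 12 to 990 without 1 library. Their split of 61 higher and 68 lower was 108 and 31 at the same total.

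Replicate numbers did not pair type 1 with type 2 microglia (correlations of deviations -0.07 and -0.01). Between microglia and MDM the same-numbered correlations were 0.04 to 0.08, under the 0.1 set for pairing, but each such microglia library correlated best with its own number and shared its sex, which is a hint from the data and not the design. With the replicate block by label number 49, 0 and 49 genes were called in the 3 comparisons, and with tumour class and number as a random block 65, 2 and 298.

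These log2 differences, none of them called, changed sign under some setting. Without 1 library the range was -0.51 to 0.07 for Tmem119, -0.26 to 0.42 for P2ry12, -1.46 to 0.17 for H2-Ab1, -1.17 to 0.38 for Cd74, -0.85 to 0.75 for Ciita, -0.18 to 1.33 for Mki67 and -0.29 to 2.08 for Ptger3. The sign turned without type 2 replicate 3 for Tmem119, H2-Ab1, Cd74 and Mki67, without type 2 replicate 2 for P2ry12 and Ciita, and without type 1 replicate 2 for Ptger3 and Ciita (-0.32). Without type 1 replicates 1 and 2 together Tmem119 gave 0.06, P2ry12 -0.02, Sall1 -0.10, Csf1r -0.08, Cd74 0.22, Ciita -0.44, Mki67 -0.34, Ptger3 -0.31, Nkg7 1.66 and Lck 0.62. Tmem119 gave 0.06 and Cd74 0.13 with quantile normalization, Tmem119 0.02 at the same total, and Ciita -0.13 with array weights and -0.01 with voom. Cd163l1, without reads in these microglia, gave -0.06, 0.01, -0.24, 0.01 and -0.42 with quantile normalization, sex, the replicate block, the random block and voom.

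Reads per library ran from 31751042 to 50365607, with the lowest depths in type 1 replicates 1 and 2, and genes under about 50 normalised counts rest on few reads.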

Other observations

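Cholesterol synthesis genes, a list of 22, held no call by limma-trend or voom (3 at an unadjusted p under 0.05), and their median difference was 0.16. Sqle, an oxygenase of sterol synthesis, stood at 92.4, 8.75 and 179 in type 1 and at 284, 310 and 374 in type 2 (adjusted p 0.26), while Mvd, an earlier enzyme, was lower at 152, 140 and 150 in type 2 against 240, 255 and 251 (log2 difference -0.75 ± 0.34 SE, adjusted p 0.55). In both genes the groups did not overlap.

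Of 25 immediate-early and dissociation stress genes limma-trend and voom called 0, 5 had an unadjusted p under 0.05, 15 had a negative and 10 a positive difference, and the median was -0.11. The 4 members named here have the smallest p. Egr2 stood at 253, 524 and 502 in type 1 and at 58.2, 223 and 128 in type 2 (-1.76 ± 0.65, adjusted p 0.41), and Egr3 at 114, 19.0 and 43.2 against 9.84, 5.33 and 0. Egr1 overlapped between the groups, at 758, 1878 and 1749 against 759, 387 and 484 (-1.38 ± 0.57, adjusted p 0.51). The transcription factor Klf4 went the other way at 22.8, 11.7 and 39.5 against 70.5, 83.0 and 64.1 (1.67 ± 0.62, adjusted p 0.41). Among secreted growth factors Pdgfa stood at 1267, 1755 and 1443 in type 1 and 903, 810 and 431 in type 2 (-1.12 ± 0.33, adjusted p 0.22), and Hbegf at 413, 322 and 312 against 137, 143 and 147 (-1.28 ± 0.57, adjusted p 0.54).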
